A study of Sus scrofa domesticus with 6 samples.

Results

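The comparison described here sets small intestine of irradiated, pravastatin-treated minipigs (IR_Pra) against small intestine of unirradiated controls, 14 days after exposure. It rests on 4 of the 6 RNA sequencing libraries of the study, 2 animals in each group, and on every row of the deposited count table that carries a gene symbol. Of 30352 such genes, 17617 had enough reads to be tested. All animals were wild type Göttingen minipigs, 6 months old. The IR_Pra animals had received 15 Gy of cobalt-60 gamma rays to the abdomen and a daily oral dose of 40 mg pravastatin for 2 weeks, and the controls had received neither. The irradiated, untreated animals (IR, 15 Gy, 2 animals) enter no test and are given beside the others as values. Because IR_Pra differs from control in both radiation and drug, the share of each cannot be told apart in this comparison. When dosing began relative to exposure is not given in the labels, which call the drug both Pra and PS.

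The lining of the small intestine is renewed within days from stem cells at the base of the crypts, and abdominal radiation kills these dividing cells. Survivors then rebuild the crypts and villi while macrophages clear debris, lymphocytes that were lost are slowly replaced, and fibroblasts lay down collagen. Pravastatin is a statin, a drug that lowers cholesterol synthesis, and cells sense the loss of cholesterol through the transcription factor SREBP2. The comparison asks what still set treated, irradiated intestine apart from intestine that was never irradiated.

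No gene passed the threshold of an adjusted p under 0.05 in edgeR's quasi-likelihood test: 0 of 17617, or 0%, and the smallest adjusted p was 0.102. Before adjustment 1668 genes (9.47%) had a p under 0.05. Of these, 953 (5.41% of all genes tested) were higher in IR_Pra and 715 (4.06%) lower, a split that became 1156 and 523 when libraries were scaled by their size alone. Both IR_Pra libraries lay above both controls for 3720 genes (21.1%) and below them for 3499 (19.9%). DESeq2 put 405 genes (2.3%) at an adjusted p under 0.05, 253 of them higher and 152 lower. Below, a DESeq2 adjusted p is printed only where it was under 0.05, and not for every such gene. LOC110261162 (DESeq2 adjusted p = 2.95e-46), BORCS6 (2.83e-38) and CD163 (9.25e-19), for example, met it too but are given below with the edgeR value alone. A missing DESeq2 value thus does not mean that a gene failed there, and no gene that met it passed in edgeR. Limma voom on the same counts called 0 genes, with 1632 at an unadjusted p under 0.05. With 2 animals a group the fits have 2 residual degrees of freedom, so the genes below are described by their values and none is counted as changed.

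The control libraries held 57905213 and 62071404 counts and the IR_Pra libraries 48600424 and 51106541. Pearson r of log2 CPM, taken across genes that do not count as independent replicates, was 0.965 between the controls, 0.963 between the IR_Pra libraries and 0.951 to 0.963 across the groups. FABP2, a fatty acid carrier that marks small bowel enterocytes, was present in all 4 libraries at 110.1 and 224 CPM in control and 262 and 265 in IR_Pra. CPM are counts scaled to the size of the library, given as replicate 1 and replicate 2. Log2 fold changes are IR_Pra minus control, followed by ± the standard error. In bulk tissue, fewer cells of a type and less RNA per cell cannot be told apart.

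Among the 10 genes of smallest p with a higher level in IR_Pra were an epithelial calcium sensor, macrophage receptors, a p53 target and a pair of HOX genes. S100A2 (Entrez 100152729, chromosome 4, 96073496 to 96076825), which binds calcium in stressed and stratified epithelia, stood at 5.34 and 5.86 CPM in control and 38.3 and 35.5 in IR_Pra, with 134 and 177 in IR. Its log2 fold change was 2.72 ± 0.20, with the smallest p of any gene with a higher level (edgeR adjusted p = 0.111, DESeq2 adjusted p = 1.80e-26). Both treated animals lay far above both controls and well below both IR animals. PHLDA3 (Entrez 100622793, chromosome 10, 23824181 to 23827428), which p53 induces and which blocks membrane binding of AKT, had the same order: 10.8 and 8.17 CPM in control, 45.4 and 37.7 in IR_Pra and 158 and 251 in IR. Its log2 fold change was 2.13 ± 0.23 (edgeR adjusted p = 0.196, DESeq2 adjusted p = 1.40e-11). CD163 (Entrez 397031, chromosome 5, 63300200 to 63334497), the receptor through which macrophages take up haemoglobin, was 10.3 and 10.4 CPM in control, 45.5 and 43.8 in IR_Pra and 134 and 206 in IR (2.102 ± 0.17, edgeR adjusted p = 0.126). For these 3 genes the IR_Pra animals lay between the other groups, without overlap on either side.

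Other genes at the top did not follow that order. GPX2 (Entrez 767625, chromosome 7, 89007636 to 89011620), the glutathione peroxidase of gut epithelium, was 20.9 and 21.97 CPM in control and 100.4 and 80.7 in IR_Pra, above the 60.1 and 30.4 CPM of the IR animals (2.08 ± 0.18, edgeR adjusted p = 0.142). PI3 (Entrez 396757, chromosome 17, 47522402 to 47524451), the elastase inhibitor elafin, was 73.7 and 74.5 CPM in control, 229 and 209 in IR_Pra and 181 and 116 in IR (1.57 ± 0.15, edgeR adjusted p = 0.169). Both were thus higher in the treated animals than in any other library. GPNMB (Entrez 100049669, chromosome 9, 92037428 to 92071501), a membrane glycoprotein of lipid-laden macrophages, was 10.1 and 11.7 CPM in control and 44.4 and 60.9 in IR_Pra, with the IR animals on either side at 14.7 and 182 (2.27 ± 0.23, edgeR adjusted p = 0.174). LOC110258693, annotated as an antigen receptor V segment on an unplaced scaffold, was 2.41 and 2.99 CPM in control and 13.7 and 12.5 in IR_Pra, with 7.27 and 4.79 in IR (2.27 ± 0.26, edgeR adjusted p = 0.230). Its product is not named in the annotation, and near-identical V segments can share reads.

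**Figure D1:**
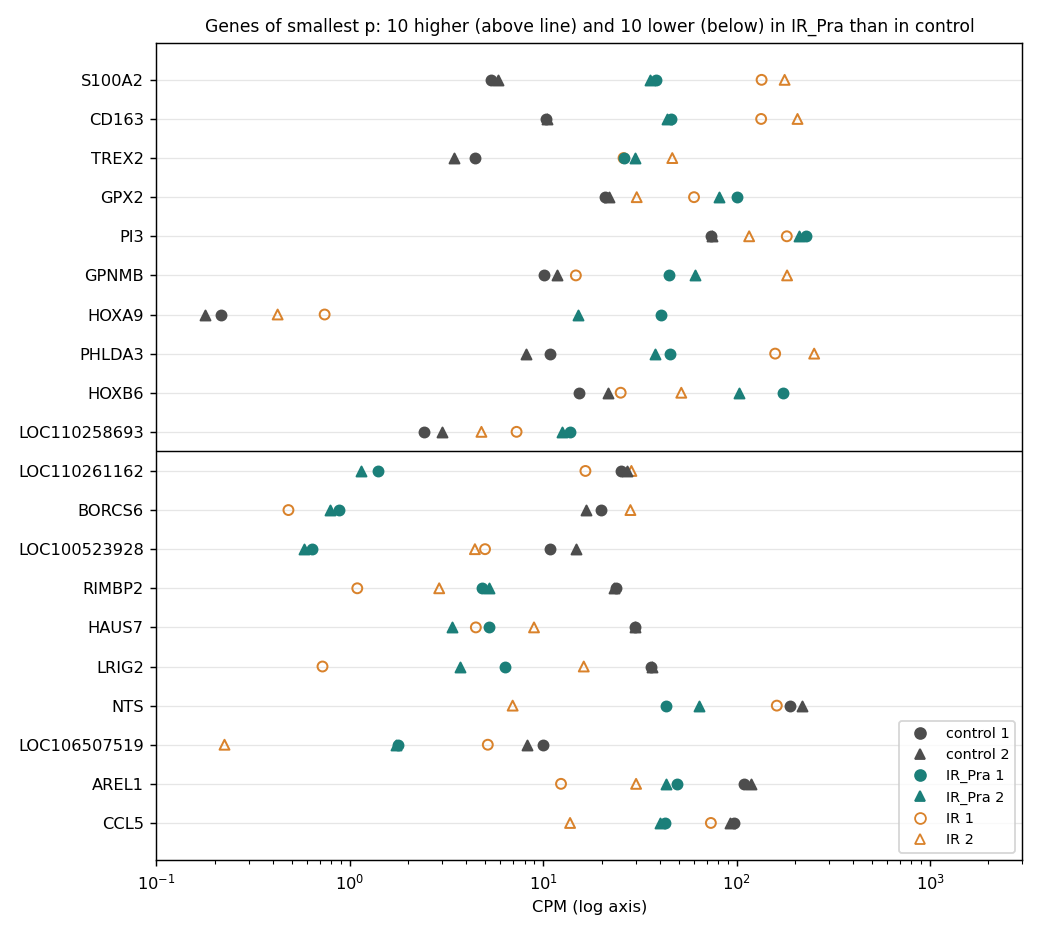
CPM of the 20 named genes of smallest p on a log axis, 1 row per gene, with the 10 higher in IR_Pra above the line and the 10 lower below it. Filled grey and teal marks are the control and IR_Pra animals, open orange marks the IR animals. The marks of the IR_Pra animals lie apart from those of the controls in every row, while the IR marks lie beyond IR_Pra in some rows and nearer the controls in others.

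The 10 genes of smallest p with a lower level were of many kinds. LOC110261162 (Entrez 110261162, chromosome 6, 97961307 to 97962902), an uncharacterized coding gene, was 25.1 and 27.1 CPM in control and 1.39 and 1.14 in IR_Pra, with 16.5 and 28.5 in IR (-4.36 ± 0.26, edgeR adjusted p = 0.102). BORCS6 (Entrez 100620287, chromosome 12, 53394514 to 53406752), a subunit of the complex that moves lysosomes along microtubules, was 19.8 and 16.7 CPM in control and 0.877 and 0.794 in IR_Pra (-4.44 ± 0.29, edgeR adjusted p = 0.102). The IR animals were 0.481 and 28.2 CPM, as low as the treated animals in one and as high as the controls in the other. LOC100523928 (Entrez 100523928, chromosome 15, 124565266 to 124607923), a glycerol kinase pseudogene whose reads could be split with its parent gene, was 10.8 and 14.7 CPM in control and 0.638 and 0.581 in IR_Pra (-4.39 ± 0.36, edgeR adjusted p = 0.126). RIMBP2 (Entrez 100153193, chromosome 14, 24394793 to 24722237), a scaffold of presynaptic release sites, was 23.7 and 23.3 CPM in control, 4.82 and 5.27 in IR_Pra and 1.09 and 2.90 in IR (-2.22 ± 0.21, edgeR adjusted p = 0.169). These 4 genes were from 4.66-fold to 21.8-fold lower in IR_Pra, with the 2 animals of a group close to each other.

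NTS (Entrez 100739079, chromosome 5, 96261299 to 96272947), the gut hormone neurotensin, was 188 and 216 CPM in control, 43.1 and 63.5 in IR_Pra and 161 and 6.94 in IR (-1.92 ± 0.24, edgeR adjusted p = 0.242). CCL5 (Entrez 396613, chromosome 12, 39652731 to 39659121), a chemokine released by cytotoxic lymphocytes, was 97.3 and 92.6 CPM in control, 42.5 and 40.1 in IR_Pra and 73.5 and 13.8 in IR (-1.20 ± 0.15, edgeR adjusted p = 0.242). LOC106507519 (Entrez 106507519, chromosome 5, 61556621 to 61567181), annotated as killer cell lectin-like receptor 8, was 9.97 and 8.22 CPM in control, 1.77 and 1.72 in IR_Pra and 5.16 and 0.225 in IR (-2.38 ± 0.29, edgeR adjusted p = 0.242). The last pair both belong to cytotoxic lymphocytes, whose other genes are described below. AREL1 (Entrez 100622552, chromosome 7, 97893182 to 97940932), a ubiquitin ligase that restrains apoptosis, was 109 and 118 CPM in control and 49.4 and 43.1 in IR_Pra, with 12.3 and 30.2 in IR (-1.30 ± 0.16, edgeR adjusted p = 0.242).

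Several of these genes overlap a neighbour on the genome, and no source used here says whether counting used the strand. HAUS7 (Entrez 100518818, chromosome X, 124234735 to 124258133), a subunit of the augmin complex of the mitotic spindle, spans TREX2 (Entrez 100621378, chromosome X, 124234736 to 124244193), an exonuclease known from skin. HAUS7 was 29.7 and 29.9 CPM in control and 5.26 and 3.37 in IR_Pra (-2.79 ± 0.28, edgeR adjusted p = 0.174), while TREX2 was 4.42 and 3.43 in control and 26.3 and 29.7 in IR_Pra (2.83 ± 0.24, edgeR adjusted p = 0.126). The members of the pair thus differed in opposite directions by a similar size, and their summed CPM was almost level, at 34.1 and 33.4 in control and 31.5 and 33.1 in IR_Pra. LOC110261162 overlaps NAPG, a protein of vesicle fusion, and NAPG stood at 12.8 and 13.2 CPM in control and 35.5 and 29.8 in IR_Pra (1.33 ± 0.19). Summed, the pair came to 37.9 and 40.3 CPM in control and 36.9 and 31.0 in IR_Pra, a much smaller difference than that of either gene. LRIG2 (Entrez 100154795, chromosome 4, 107348662 to 107511308), a membrane regulator of growth factor receptors, was 35.9 and 36.7 CPM in control and 6.32 and 3.72 in IR_Pra (-2.86 ± 0.30, edgeR adjusted p = 0.176), and the overlapping lactate transporter SLC16A1 was 14.1 and 8.33 in control and 25.7 and 13.7 in IR_Pra (0.81 ± 0.41). Their sum was lower in IR_Pra, at 32.001 and 17.4 CPM against 49.996 and 44.99 in control, so this pair was not level as the first 2 were. In all 3 pairs reads of one gene could have been counted for the other, which was not tested, and their fold changes are uncertain for that reason. The genes that overlap BORCS6, LOC100523928, GPX2 and AREL1 differed less: the log2 fold change was -0.07 ± 0.37 for TMEM107, 0.05 ± 0.31 for MOGAT1, 0.04 ± 0.21 for CHURC1 and -0.31 ± 0.24 for FCF1. HOXB6, described below, overlaps LOC102166259, which had few reads, at a mean of 0.343 CPM in control and 0.244 in IR_Pra (log2 fold change -0.50). The neighbours NAPG, SLC16A1, TMEM107, MOGAT1, CHURC1, FCF1 and LOC102166259 were named for their position, after values were seen.

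**Figure D2:**
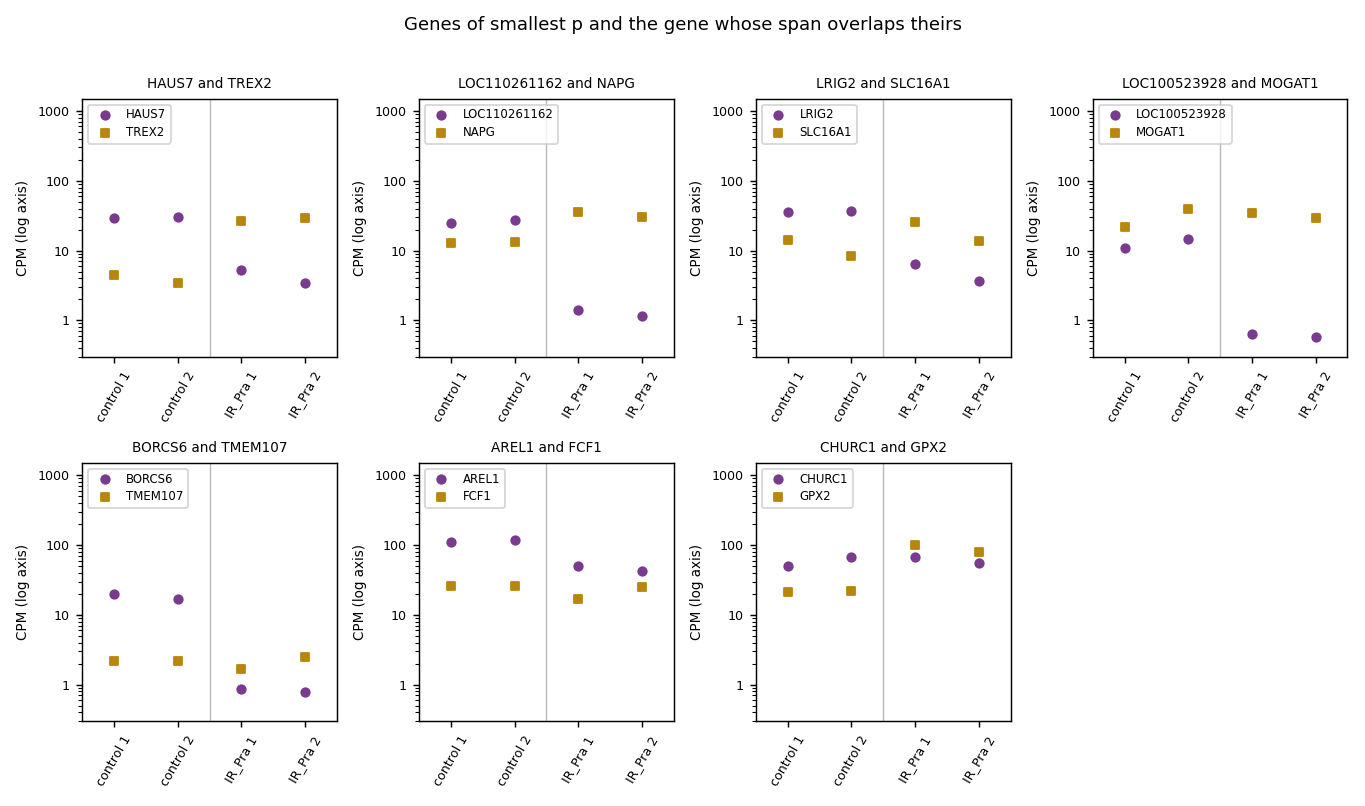
CPM (log axis) in each control and IR_Pra library for 7 of the 20 genes of smallest p that overlap a tested gene, with that neighbour. HAUS7 and TREX2 trade places between the groups, as do LOC110261162 and NAPG, and LRIG2 lies above SLC16A1 in the controls and below it in IR_Pra, while the neighbours of the other 4 differ less.

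HOX genes, the transcription factors that give cells their position along the body axis, were among the largest differences of the comparison. HOXA9 (Entrez 100519066, chromosome 18, 45404594 to 45411512) was near the limit of detection in control, at 0.214 and 0.179 CPM, and stood at 40.4 and 15.2 CPM in IR_Pra (7.13 ± 0.73, edgeR adjusted p = 0.174, DESeq2 adjusted p = 1.22e-30). The summed counts were 23 in control and 2812 in IR_Pra. In the IR animals HOXA9 was 0.740 and 0.423 CPM, so the high level was seen in the treated animals and in no other library. HOXB6 (Entrez 100627849, chromosome 12, 24849741 to 24853494) was 15.3 and 21.5 CPM in control, 174 and 102 in IR_Pra and 25.1 and 51.7 in IR (2.90 ± 0.33, edgeR adjusted p = 0.230). HOXB7 was 4.81 and 6.53 CPM in control and 26.3 and 18.6 in IR_Pra (1.98 ± 0.29), HOXA5 4.54 and 8.25 in control and 28.9 and 16.5 in IR_Pra (1.82 ± 0.41), and HOXB5 3.57 and 5.34 in control and 13.7 and 8.97 in IR_Pra (1.34 ± 0.35). In the IR animals HOXB7 was 13.9 and 11.3 CPM, HOXA5 9.11 and 20.6 and HOXB5 14.7 and 19.7. IR_Pra 1 was above IR_Pra 2 for each of these 5 genes.

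Of 22 kept HOX genes, 8 had an unadjusted p under 0.05 with a higher level, and 0 with a lower one (4 higher without IR_Pra 1). Their median log2 fold change was 0.50, against 0.01 over all genes tested. The table held 29 of the listed HOX genes, and those with too few reads were dropped. HOXA9, near the limit of detection in control, was kept through its reads in IR_Pra, so it could only count as higher. Relative to the control mean the list's median was -0.23 and 0.23 in the controls, 0.85 and 0.34 in IR_Pra and 1.13 and 1.54 in IR. As a list, HOX genes were thus highest in the untreated irradiated animals. Beside the 5 above, the higher members were HOXB8 (0.91 ± 0.26), HOXC9 (1.27 ± 0.38) and HOXC10 (3.81 ± 1.04). At the other end of the A cluster, HOXA2 to HOXA4 had log2 fold changes from 0.13 for HOXA4 to 0.48 for HOXA3. HOXA6, which was outside the list, was 3.16 and 7.66 CPM in control and 42.4 and 13.8 in IR_Pra, and LOC102159438, beside HOXA9, 0 and 0 in control and 2.85 and 1.12 in IR_Pra. These further genes were picked out after their values were seen. HOX genes vary along the bowel, so genes of the upper and lower small bowel were examined beside them. The 13 kept genes of the proximal list had a median of -0.12 with 0 higher and 3 lower at an unadjusted p under 0.05 (1 lower without control 2 and 0 without IR_Pra 1). The 16 of the distal list had a median of -0.09, with 1 higher and 3 lower. Among the distal genes glucagon (GCG), whose product in the gut is GLP-1, was higher at 99.04 and 102 CPM in control and 183 and 156 in IR_Pra (0.75 ± 0.16). PYY, the peptide of the same L cells, was lower at 88.9 and 76.7 in control and 27.9 and 45.3 in IR_Pra (-1.18 ± 0.27), as was CUBN, the ileal vitamin B12 receptor, at 1452 and 1770.3 in control and 963 and 899 in IR_Pra (-0.79 ± 0.21). The median of the smooth muscle list, described below, put the 6 libraries in the same order as that of the HOX list, though HOXA9 itself was low in IR. Neither the site of sampling along the bowel nor the amount of muscle wall is given in the labels. The part of each in the HOX values was not tested.

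**Figure D3:**
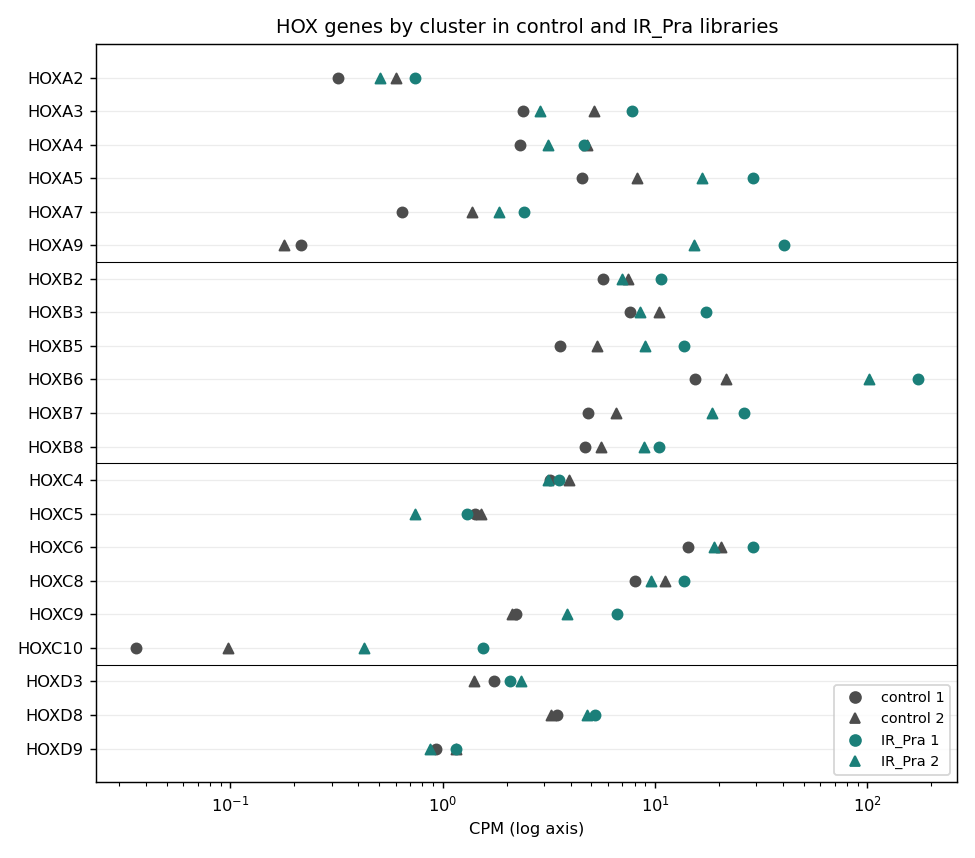
CPM (log axis) of 21 of the 22 kept HOX genes, ordered by cluster, in the control (grey) and IR_Pra (teal) animals. HOXA9, HOXB6, HOXB7, HOXA5 and HOXB5 stand apart between the groups, while HOXA4, HOXC4 and HOXD9 overlap.

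Counts for a gene list are given at an unadjusted p under 0.05. A gene with enough reads in either group was kept. One kept through IR_Pra alone, such as SLC11A1, SELE or MUC4 below, could only count as higher. Of all genes tested, 5.41% met it with a higher level and 4.06% with a lower one. List medians are log2 fold changes, against 0.01 for all genes, whose signs were thus near evenly split. Members of a list can move together. All 40 ribosomal protein genes had a negative sign and all 18 smooth muscle genes a positive one. At that p, 0 of the 40 were lower and 4 of the 18 higher. A one-sided count of signs is thus no test of a list. Macrophage genes made up the cell type list with the highest median. Of 25 kept genes 16 were higher at an unadjusted p under 0.05 and 0 lower (between 15 and 17 higher with any 1 library left out), with a median log2 fold change of 1.16. Relative to the control mean the list's median was 0.78 and 1.27 in the IR_Pra libraries and 2.00 and 2.65 in IR, and it was -0.01 and 0.01 in the controls. MRC1, the mannose receptor of tissue macrophages, was 8.38 and 11.3 CPM in control, 37.8 and 35.6 in IR_Pra and 30.5 and 72.1 in IR (1.90 ± 0.22, DESeq2 adjusted p = 5.34e-09). FABP4, a fatty acid chaperone, was 0.429 and 0.846 CPM in control and 3.73 and 4.07 in IR_Pra (2.59 ± 0.43), and SLC11A1, which pumps metal ions out of the phagosome, was 0.214 and 0.163 in control and 1.81 and 1.49 in IR_Pra (3.12 ± 0.52). In the IR animals FABP4 was 7.72 and 33.3 CPM and SLC11A1 7.83 and 21.2. These 3 genes were higher in both treated animals than in both controls, and lower than in at least one IR animal.

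Complement genes had mostly positive log2 fold changes, 22 of 24, and the other myeloid lists depended on single libraries. Of 16 dendritic cell genes 4 were higher at an unadjusted p under 0.05 (2 higher without control 2), and their median of 0.37 was -0.015 without control 2 and 0.069 without IR_Pra 2. CD209, a pathogen-binding lectin, was 5.81 and 4.31 CPM in control and 22.8 and 18.8 in IR_Pra (2.04 ± 0.26, DESeq2 adjusted p = 1.65e-08), with 64.3 and 140.4 in IR. XCR1, a receptor of cross-presenting dendritic cells, was 6.47 and 4.59 CPM in control and 17.3 and 13.4 in IR_Pra (1.48 ± 0.29, DESeq2 adjusted p = 0.00156), with 16.97 and 12.05 in IR. Of 12 neutrophil genes 2 were higher (4 higher without control 1 and 1 without IR_Pra 2), among them ALPL, alkaline phosphatase of many tissues (1.59 ± 0.28), and the median of 0.51 was -0.0069 without IR_Pra 2. Of 24 complement genes 12 were higher and 1 lower, with a median of 0.64. C3, the central component, was 1296 and 1363 CPM in control and 2503 and 2745 in IR_Pra (0.98 ± 0.21, DESeq2 adjusted p = 0.000119), and 771 and 2233 in IR. The C1q chains, which macrophages make, are in the macrophage and complement lists alike: C1QB was 216 and 236 CPM in control and 386 and 627 in IR_Pra (1.16 ± 0.26).

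The stroma held the next large group. Of 34 kept extracellular matrix and fibroblast genes 20 were higher at an unadjusted p under 0.05 and 0 lower, and the median was 0.86 (12 higher without control 1 and 12 without IR_Pra 1). COL1A1, the larger share of type I collagen, was 349 and 700.5 CPM in control, 1779 and 1364 in IR_Pra and 2523 and 8956 in IR (1.58 ± 0.38, edgeR adjusted p = 0.384, DESeq2 adjusted p = 0.00397). COL3A1, of reticular fibres, was 888 and 1482 CPM in control and 3379 and 2033 in IR_Pra (1.19 ± 0.38). LOXL2, an enzyme that cross-links collagen, was 30.03 and 24.9 in control and 79.1 and 54.8 in IR_Pra (1.29 ± 0.24, DESeq2 adjusted p = 0.00130), and periostin (POSTN), a matrix protein of scars, 140.3 and 233 in control and 467 and 412 in IR_Pra (1.24 ± 0.27). Both treated animals exceeded both controls for each of these, and the controls themselves differed, with control 2 above control 1 for both collagens and periostin. ACTA2, the actin of smooth muscle and myofibroblasts, was 245 and 207 CPM in control and 338 and 342 in IR_Pra (0.59 ± 0.16, edgeR adjusted p = 0.420), with 624 and 653 in IR.

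Smooth muscle genes lay higher along with the matrix genes and differed within the controls. The median of 18 smooth muscle genes, against the control mean, was -0.53 and 0.53 in control 1 and control 2 and 1.18 and 0.62 in the IR_Pra libraries, and 1.52 and 2.52 in IR. At an unadjusted p under 0.05, 4 were higher (1 higher without control 1, 17 without control 2 and 1 without IR_Pra 1). ACTG2, the actin of the gut muscle wall, was 1089.9 and 2474 CPM in control and 5144 and 3532 in IR_Pra (1.28 ± 0.46). How much muscle wall each sample held is not given in the labels, and its part in the matrix values was not tested. The 22 genes of enteric neurons and glia had a median of 0.26 with 1 higher, the glial filament GFAP, at 2.57 and 2.197 CPM in control, 5.66 and 4.67 in IR_Pra and 29.5 and 42.9 in IR (1.11 ± 0.31). The 5 kept genes of interstitial cells of Cajal, the gut pacemakers, had a median of 0.11 with 0 past that p in either direction, and a median of -0.18 without control 1.

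**Figure D4:**
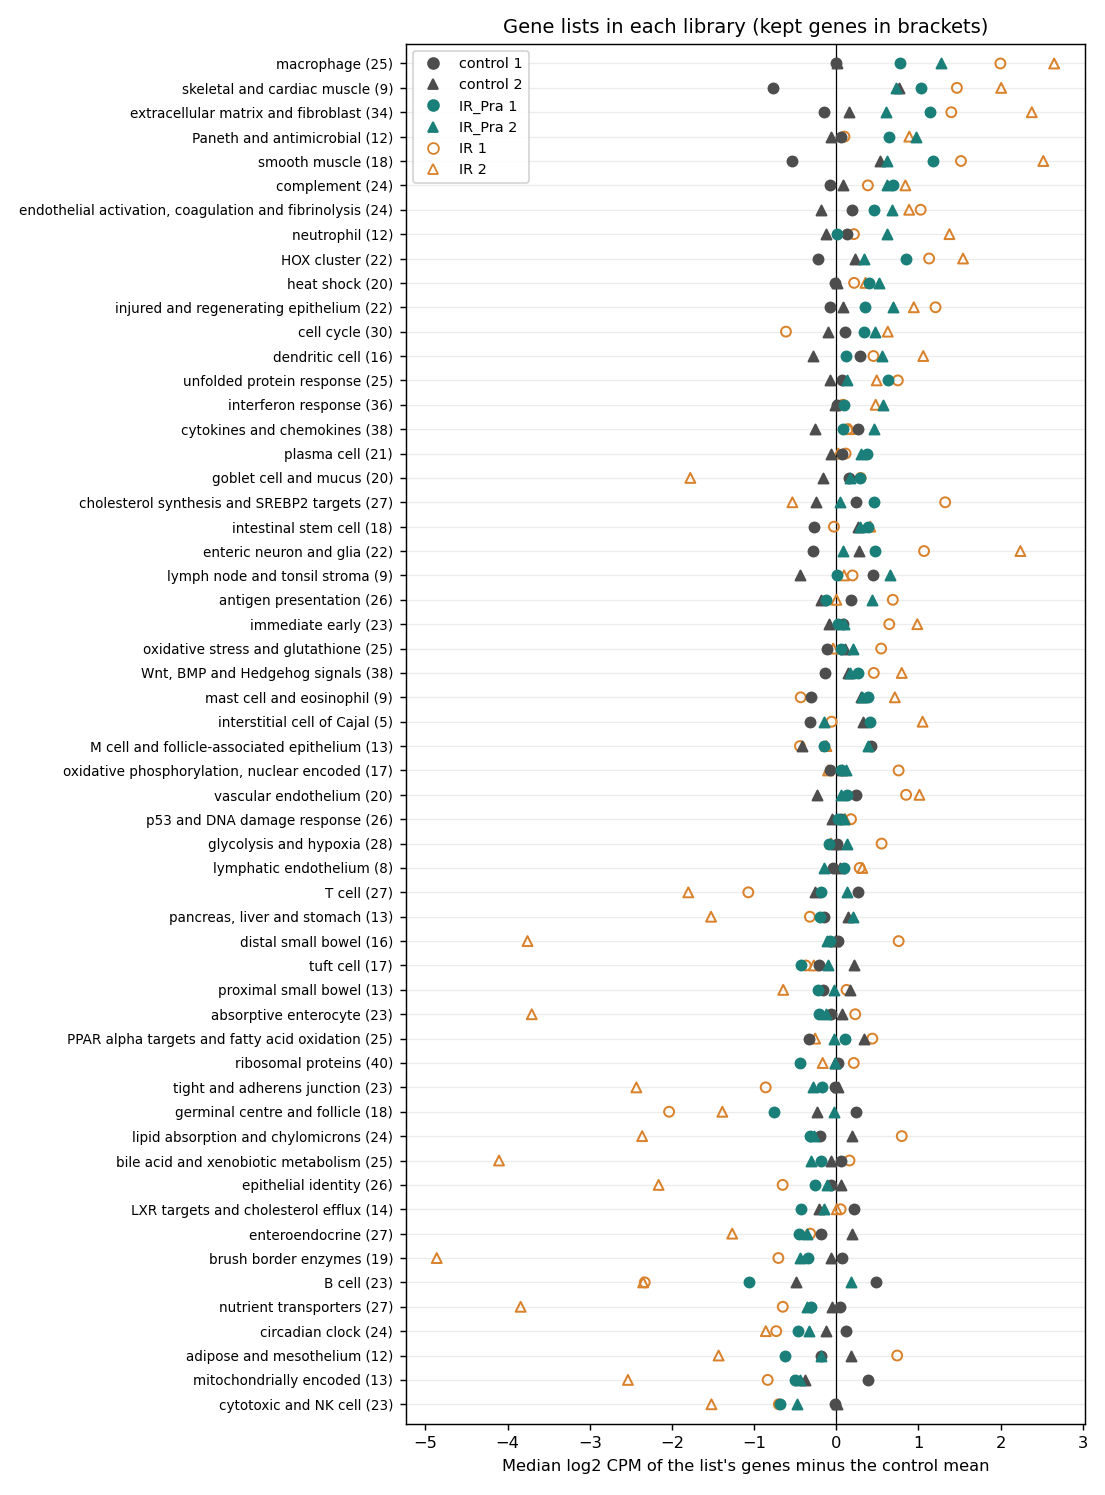
Median log2 CPM of each gene list in each library minus the control mean, with lists ordered by the IR_Pra difference and the number of kept genes in brackets. Macrophage and matrix genes lie to the right in both IR_Pra animals (teal) and cytotoxic and clock genes to the left, while B cell and smooth muscle genes spread within a group. Open orange marks are the IR animals.

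Endothelial genes were read as a pair of lists. The 20 genes that identify vascular endothelium had a median of 0.04, or -0.23 without control 2, and 0 past an unadjusted p of 0.05 with a higher level and 0 with a lower one (5 higher without control 1 and 1 without IR_Pra 2). The 24 genes of endothelial activation, coagulation and fibrinolysis had a median of 0.51, with 10 higher and 0 lower (5 higher without control 2 and 4 without IR_Pra 2). RHOB, a GTPase induced by DNA damage, was 47.5 and 52.2 CPM in control, 117 and 83.5 in IR_Pra and 234 and 375 in IR (1.01 ± 0.21, DESeq2 adjusted p = 0.0134). SELE, a selectin on which leukocytes roll, was 0.143 and 0.0814 CPM in control and 0.857 and 0.717 in IR_Pra (2.80 ± 0.64). It was near the limit of detection in control and was kept through its reads in IR_Pra, so it could only count as higher. SELP, the selectin stored in endothelium and platelets, was 2.47 and 2.93 in control and 5.22 and 6.603 in IR_Pra (1.13 ± 0.30). Thrombomodulin (THBD), the anticoagulant receptor of endothelium, was 13.4 and 8.90 CPM in control and 13.5 and 11.503 in IR_Pra, with a 95% interval of the log2 difference from -0.53 to 0.87. NOS3, endothelial nitric oxide synthase, was 4.84 and 4.38 in control and 7.01 and 6.22 in IR_Pra, with an interval from -0.14 to 1.18. Both intervals include 0, so the sign of the difference was not resolved for either gene.

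Genes of cytotoxic lymphocytes were mostly lower, with a negative log2 fold change for 19 of 23 kept genes. Of the 23, 10 were lower at an unadjusted p under 0.05 and 0 higher, with a median of -0.60 (6 lower without IR_Pra 1). Granzyme A (GZMA), a killing protease, was 28.7 and 54.6 CPM in control, 12.7 and 10.98 in IR_Pra and 11.07 and 4.52 in IR (-1.82 ± 0.34, DESeq2 adjusted p = 0.000277). Granzyme B (GZMB) was 30.6 and 60.1 CPM in control and 13.6 and 15.8 in IR_Pra (-1.62 ± 0.35, DESeq2 adjusted p = 0.00269), CD244, a receptor of NK cells, 17.1 and 17.1 in control and 6.54 and 8.29 in IR_Pra (-1.21 ± 0.23), and KLRK1, the stress-ligand receptor NKG2D, 11.7 and 10.3 in control and 4.24 and 5.17 in IR_Pra (-1.22 ± 0.26). Neither treated animal reached the lower control for any of these 4 genes. The list's median stood at -0.69 and -0.48 in the IR_Pra libraries and -0.70 and -1.52 in IR, against -0.01 and 0.01 in the controls. The 27 genes of T cells in general had -0.02 as their median, with 3 higher and 1 lower at that p (1 higher without control 2 and 0 without IR_Pra 2), and the median was 0.27 without control 1, 0.10 without IR_Pra 1, -0.22 without control 2 and -0.23 without IR_Pra 2. Its sign also turned when libraries were scaled by size alone. CD3E, part of the T cell receptor complex, was 73.6 and 46.7 CPM in control and 35.4 and 56.1 in IR_Pra, with an interval from -1.19 to 0.40. FOXP3, the factor of regulatory T cells, was 1.77 and 1.22 in control and 2.65 and 4.20 in IR_Pra (1.20 ± 0.41), and LEF1, of naive T cells, 5.79 and 3.65 in control and 8.93 and 11.4 in IR_Pra (1.11 ± 0.33).

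B cell genes differed more within the groups than between them. The median of 23 B cell genes against the control mean was 0.49 and -0.49 in control 1 and control 2 and -1.07 and 0.17 in IR_Pra 1 and IR_Pra 2, with -2.33 and -2.35 in the IR libraries. None had an unadjusted p under 0.05 in either direction with all libraries, whereas without IR_Pra 2 the count of lower genes was 7 and without control 1 the count of higher genes was 3. MS4A1, which encodes CD20, was 53.7 and 31.4 CPM in control, 18.7 and 39.7 in IR_Pra and 0.111 and 0.251 in IR, and PAX5, the master factor of the B lineage, was 75.5 and 80.4 in control, 37.2 and 80.8 in IR_Pra and 0.185 and 0.145 in IR. For both genes the treated animals overlapped the controls, and the IR animals were far below every library of the other groups. Of 18 germinal centre and follicle genes 2 were lower (1 lower without control 1, 1 without IR_Pra 1 and 9 without IR_Pra 2): RGS13, a brake on chemokine signals in germinal centre B cells, was 19.4 and 14.5 CPM in control and 3.13 and 6.93 in IR_Pra (-1.75 ± 0.42, DESeq2 adjusted p = 0.00989), and MEF2B, a transcription factor of the same cells, was 37.04 and 26.3 in control and 5.58 and 17.6 in IR_Pra (-1.45 ± 0.54). The 13 genes of M cells and follicle-associated epithelium had a median of 0.09, with 8 positive and 5 negative log2 fold changes, 0 higher and 1 lower at that p, and the median was -0.15 without control 2 and -0.18 without IR_Pra 2. The lower one was GP2, the bacterial receptor of the M cells that cover lymphoid follicles, at 186 and 85.3 CPM in control, 22.5 and 49.1 in IR_Pra and 0.296 and 0 in IR (-1.92 ± 0.51, DESeq2 adjusted p = 0.00729).

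Plasma cell genes were mostly higher, with a positive log2 fold change for 18 of 21 kept genes. Of the 21, 7 were higher at an unadjusted p under 0.05 and 0 lower, with a median of 0.32 (3 higher without IR_Pra 1). JCHAIN, which links IgA and IgM into polymers, was 243 and 495 CPM in control, 1209 and 753 in IR_Pra and 1096 and 1842 in IR (1.41 ± 0.41, DESeq2 adjusted p = 0.0347). PIGR, which carries these polymers across the epithelium, was 282 and 451 CPM in control, 995 and 745 in IR_Pra and 169.9 and 465 in IR (1.25 ± 0.29, DESeq2 adjusted p = 0.0103). PIGR is a gene of the epithelium rather than of plasma cells, and it is counted both here and in the Paneth cell and antimicrobial list. TXNDC5, a disulfide isomerase of secretory cells, was 166 and 171 in control and 324 and 253 in IR_Pra (0.78 ± 0.18). The annotation also marks 63 tested genes as antigen receptor V segments, of which 22 were higher at an unadjusted p under 0.05 and 0 lower, with a median log2 fold change of 1.02. Of 13 constant regions 4 were higher and 2 lower (median 0.64). Reads of near-identical segments can be split among them, and which chain each belongs to was not used here.

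In the epithelium, several genes of injury and repair were higher. Of 22 kept genes of injured and regenerating epithelium 9 were higher at an unadjusted p under 0.05 and 1 lower, the growth factor EREG being the one, with a median of 0.46. REG3G, a lectin that kills Gram-positive bacteria, had the largest difference of the list: 0.465 and 6.30 CPM in control, 692 and 225 in IR_Pra and 80.9 and 40.5 in IR (7.07 ± 1.23, DESeq2 adjusted p = 0.000201). ANXA1, which helps to resolve inflammation, was 15.8 and 20.6 CPM in control, 46.9 and 42.7 in IR_Pra and 58.05 and 165 in IR (1.30 ± 0.20, DESeq2 adjusted p = 0.000175). S100A11, a calcium-binding protein, was 30.1 and 30.5 in control, 64.9 and 77.4 in IR_Pra and 157 and 161 in IR (1.23 ± 0.17, DESeq2 adjusted p = 1.71e-05). REG3G was thus highest in the treated animals, and ANXA1 and S100A11 in the IR animals. REG3G and LCN2 are counted both in this list and in the Paneth cell and antimicrobial list. Of 12 kept Paneth cell and antimicrobial genes 6 were higher and 0 lower, with a median of 0.84 (3 higher without control 2). BPI, a protein that binds bacterial endotoxin, was 132 and 169.6 CPM in control and 568 and 279.7 in IR_Pra (1.49 ± 0.36, DESeq2 adjusted p = 0.00906). LYZ, lysozyme, was 182 and 261 in control and 254 and 355 in IR_Pra, with an interval from -0.19 to 1.11.

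Several genes of dividing cells were modestly higher. Of 30 cell cycle genes 11 were higher at an unadjusted p under 0.05 and 0 lower, with a median of 0.39, and the count depended on the libraries (2 higher without control 2 and 6 without IR_Pra 2). CDK1, the kinase that starts mitosis, was 10.7 and 9.84 CPM in control, 21.2 and 19.5 in IR_Pra and 10.2 and 22.1 in IR (0.99 ± 0.20, DESeq2 adjusted p = 0.00566). CCNB2, a cyclin that binds it, was 11.51 and 10.2 in control and 18.9 and 18.5 in IR_Pra (0.78 ± 0.20), and MKI67, the proliferation antigen Ki-67, 151 and 108 in control and 163 and 167 in IR_Pra, with an interval from -0.16 to 0.86. None of the 18 intestinal stem cell genes had an unadjusted p under 0.05 in either direction with all 4 libraries, and their median was 0.27. OLFM4, abundant in crypt base cells, was 203 and 347 CPM in control and 827 and 364 in IR_Pra (1.11 ± 0.45). LGR5, the receptor that marks cycling stem cells, had few reads: 1.61 and 2.75 CPM in control and 1.02 and 1.90 in IR_Pra, with an interval from -1.81 to 0.64. Without control 2 there were 5 higher stem cell genes at that p. MUC2, the mucin of goblet cells, was 5703 and 3988 CPM in control and 4402 and 4984 in IR_Pra, with an interval from -0.81 to 0.72, so a difference of 2-fold in either direction lay outside it. MUC4, a membrane mucin, was 0.179 and 0.325 in control and 2.45 and 1.68 in IR_Pra (3.01 ± 0.54, DESeq2 adjusted p = 0.00179), and it was 0.296 and 0.635 in IR.

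Genes of mature absorption were lower in part. Of 27 nutrient transporters 8 were lower at an unadjusted p under 0.05 and 1 higher, with a median of -0.42 (5 lower without IR_Pra 1). SLC7A8, an amino acid exchanger of the basolateral membrane, was 171 and 305 CPM in control, 48.8 and 65.98 in IR_Pra and 40.3 and 15.5 in IR (-2.05 ± 0.33, DESeq2 adjusted p = 3.11e-06). SLC15A1, the peptide transporter PEPT1, was 636 and 426 CPM in control and 243 and 248 in IR_Pra (-1.11 ± 0.23, DESeq2 adjusted p = 0.00397), and SLC52A3, a riboflavin transporter, 64.5 and 65.8 in control and 37.7 and 42.1 in IR_Pra (-0.71 ± 0.16). Both treated animals were below both controls for each. Of 19 brush border enzymes 4 were lower and 1 higher (median -0.40; 2 lower without control 2). Maltase-glucoamylase (MGAM), which ends starch digestion, was 3817 and 3454 CPM in control, 1733 and 1929 in IR_Pra and 787 and 54.4 in IR (-0.99 ± 0.23, DESeq2 adjusted p = 0.000134). The one higher enzyme was trehalase (TREH), at 8.33 and 2.49 CPM in control and 35.8 and 30.8 in IR_Pra (2.63 ± 0.55, DESeq2 adjusted p = 0.000193).

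Lipid handling held members on either side. Of 24 genes of lipid absorption 5 were lower and 2 higher at an unadjusted p under 0.05 (1 lower without control 2 and 0 without IR_Pra 1, and 6 higher without control 2 and 4 without IR_Pra 1). FABP1, the liver-type fatty acid carrier, was 153 and 93.4 CPM in control, 921 and 439 in IR_Pra and 12217 and 110.2 in IR (2.46 ± 0.44, DESeq2 adjusted p = 2.04e-06). APOC3, an apolipoprotein that slows triglyceride clearance, was 16.5 and 25.3 CPM in control, 58.1 and 85.2 in IR_Pra and 3015 and 5.65 in IR (1.78 ± 0.30, DESeq2 adjusted p = 6.49e-05). The IR animals spanned a far wider range than either other group for both genes. APOA4 was 119 and 222 CPM in control and 95.8 and 401 in IR_Pra, with an interval from -1.15 to 2.23, and DGAT2, which makes triglyceride, was 29.5 and 67.2 in control and 18.8 and 19.9 in IR_Pra (-1.32 ± 0.40). Of 25 genes of bile acid and xenobiotic metabolism 5 were lower and 2 higher at that p. ABCG2, an efflux pump of drugs, was 334 and 274 CPM in control and 158 and 163 in IR_Pra (-0.92 ± 0.17, DESeq2 adjusted p = 0.00176). CYP3A29, a pig cytochrome of drug oxidation, was 816 and 454 in control and 59.2 and 207 in IR_Pra (-2.25 ± 0.63, DESeq2 adjusted p = 0.00502). Of 23 junction genes 5 were lower and 0 higher (median -0.22; 1 lower without control 1 and 1 without control 2), among them occludin (OCLN), at 112 and 124 CPM in control and 79.9 and 76.1 in IR_Pra (-0.60 ± 0.15).

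Hormone genes also divided. Of 27 enteroendocrine genes 5 were lower, NTS and PYY above among them, and 2 higher, with a median of -0.34 (3 lower without IR_Pra 1, and 1 higher without control 1 and 1 without IR_Pra 2). NEUROD1, a factor that commits cells to hormone lineages, was 4.40 and 4.78 CPM in control, 1.49 and 1.90 in IR_Pra and 0.685 and 0.185 in IR (-1.43 ± 0.32, DESeq2 adjusted p = 0.0215). CCK, which empties the gall bladder and is also counted in the proximal list, was 7.35 and 5.52 CPM in control and 1.87 and 3.52 in IR_Pra (-1.25 ± 0.40). GIP, an incretin of the same list, was 9.51 and 25.5 in control and 1.02 and 5.91 in IR_Pra (-2.34 ± 0.84). Thus, among the peptide hormone genes named here, GCG was higher and 4 were lower. They were named for a small p, and the list's other hormone genes are not described. Over the whole list 7 genes had a positive log2 fold change and 20 a negative one. The 17 tuft cell genes had a median of -0.12, with 1 higher and 1 lower at that p, and each of these counts was 0 without IR_Pra 1.

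Pravastatin acts on cholesterol synthesis. Of 27 kept genes of cholesterol synthesis and SREBP2 targets, 21 had a positive log2 fold change and 6 a negative one, with a median of 0.29. For 5 of the 27 both IR_Pra libraries lay above both controls and for 0 below, against 21.1% and 19.9% of all genes tested. Relative to the control mean the list's median was 0.24 and -0.24 in the controls and 0.45 and 0.04 in IR_Pra. In the IR animals, which had no drug, it was 1.32 and -0.53. None of the 27 had an unadjusted p under 0.05 in either direction. HMGCS1, an early enzyme of cholesterol synthesis, was 65.6 and 39.8 CPM in control, 151 and 57.7 in IR_Pra and 132 and 32.5 in IR, with an interval from -0.25 to 2.23. IR_Pra 1 was above the other 3 libraries of the comparison, and IR_Pra 2 lay between the controls. SQLE, squalene epoxidase, was 22.7 and 19.5 CPM in control and 52.1 and 24.7 in IR_Pra (0.86 ± 0.37), and INSIG1, which holds SREBP in the endoplasmic reticulum, 116 and 73.05 in control and 103 and 78.5 in IR_Pra, with an interval from -0.74 to 0.63. Without control 1, 7 of the 27 and without IR_Pra 2, 5 were higher at that p, so 1 library decided this count.

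Genes that respond to cholesterol through the nuclear receptor LXR were lower in part: 3 of 14 at an unadjusted p under 0.05 and 0 higher (median -0.28; 1 lower without control 1, 0 without IR_Pra 1 and 5 without IR_Pra 2). SREBF1, which LXR induces and which drives fatty acid synthesis, was 191 and 129 CPM in control, 74.9 and 92.7 in IR_Pra and 222 and 149 in IR (-0.93 ± 0.24, DESeq2 adjusted p = 0.0492). ABCG5, which pairs with ABCG8 in the sterol pump that returns cholesterol to the lumen, was 116 and 76.1 CPM in control, 43.5 and 59.8 in IR_Pra and 33.9 and 2.70 in IR (-0.89 ± 0.27). ABCG8 was 253 and 189 CPM in control and 81.6 and 147 in IR_Pra (-0.95 ± 0.32). For all 3 genes both treated animals were below both controls. Of 25 PPAR alpha targets 1 was higher and 0 lower at an unadjusted p under 0.05, with a median of -0.19 that was 0.43 without control 2 and also turned sign with limma trend on log2(FPKM + 1). Without control 2 the count of higher PPAR alpha targets was 7, and without control 1 there were 6 lower.

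The median of 26 p53 pathway genes was 0.04, close to that of all genes, yet 6 were higher at an unadjusted p under 0.05 and 0 lower (3 higher without control 2). Beside PHLDA3 these included GDF15, a stress hormone, at 1.20 and 0.586 CPM in control, 3.15 and 3.41 in IR_Pra and 11.7 and 4.05 in IR (1.89 ± 0.44, DESeq2 adjusted p = 0.0397). AEN, a nuclease of apoptosis, was 24.2 and 17.6 in control, 36.4 and 39.4 in IR_Pra and 55.97 and 71.1 in IR (0.86 ± 0.22). CDKN1A, the cell cycle inhibitor p21, was 72.7 and 80.9 in control, 99.9 and 120.1 in IR_Pra and 208 and 155 in IR (0.52 ± 0.17, edgeR adjusted p = 0.463), and MDM2, the ligase that degrades p53, 16.1 and 11.96 in control, 25.03 and 19.2 in IR_Pra and 4.31 and 27.1 in IR (0.66 ± 0.25). The treated animals were above the controls for all 5 of these genes, by amounts from 1.43-fold to 4.38-fold.

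Protein folding genes were mostly higher, with a positive log2 fold change for 20 of 25 genes of the unfolded protein response and 18 of 20 heat shock genes. Of the first 25, 12 were higher at an unadjusted p under 0.05 and 0 lower, with a median of 0.33 (5 higher without control 2 and 7 without IR_Pra 1). HSPA5, the main chaperone of the endoplasmic reticulum, was 252 and 233 CPM in control, 470.4 and 372 in IR_Pra and 416 and 548 in IR (0.80 ± 0.19, DESeq2 adjusted p = 0.0282). HSP90B1, a chaperone of the same compartment, was 261 and 269 CPM in control and 688 and 434 in IR_Pra (1.08 ± 0.26, DESeq2 adjusted p = 0.0159), and ATF3, a transcription factor of acute stress, 7.79 and 4.88 in control and 16.1 and 16.6 in IR_Pra (1.37 ± 0.29, DESeq2 adjusted p = 0.00598). Of 20 heat shock genes 8 were higher and 0 lower (median 0.48; 3 higher without control 1, 4 without control 2 and 5 without IR_Pra 2). SERPINH1, a collagen chaperone, was 109 and 113 CPM in control and 278 and 217 in IR_Pra (1.16 ± 0.18, DESeq2 adjusted p = 0.000151), and CRYAB, a small heat shock protein of muscle, 10.9 and 12.5 in control and 27.1 and 24.1 in IR_Pra (1.12 ± 0.20, DESeq2 adjusted p = 0.00119). SERPINH1 and CRYAB serve matrix and muscle cells, whose genes were higher in these libraries too, and plasma cells rely on the unfolded protein response. The part of these cells in the folding genes was not tested.

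The level of clock genes follows the hour of the day. Of 24 kept genes 10 were lower at an unadjusted p under 0.05 and 1 higher, with a median of -0.44 (5 lower without control 1 and 6 without IR_Pra 1). DBP, an output factor of the clock, was 64.8 and 47.5 CPM in control, 23.1 and 20.04 in IR_Pra and 38.2 and 36.9 in IR (-1.38 ± 0.22, DESeq2 adjusted p = 7.16e-05). PER2, a repressor at the core of the clock, was 37.8 and 30.2 CPM in control, 14.5 and 10.8 in IR_Pra and 7.03 and 15.7 in IR (-1.43 ± 0.24, DESeq2 adjusted p = 0.000155), and PER3, its relative, 59.3 and 49.3 in control and 31.4 and 22.1 in IR_Pra (-1.02 ± 0.23). TEF, a relative of DBP, was 96.9 and 94.97 CPM in control and 58.1 and 45.1 in IR_Pra (-0.89 ± 0.18, DESeq2 adjusted p = 0.0112). Both treated animals were below both controls for all 4 genes. The list went both ways: 9 of its 24 genes had a positive log2 fold change and 15 a negative one. For 5 both IR_Pra libraries lay above both controls and for 12 below, against 21.1% and 19.9% of all genes tested. The hour of tissue collection is not given in the labels, and its part in these values was not tested.

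**Figure D5:**
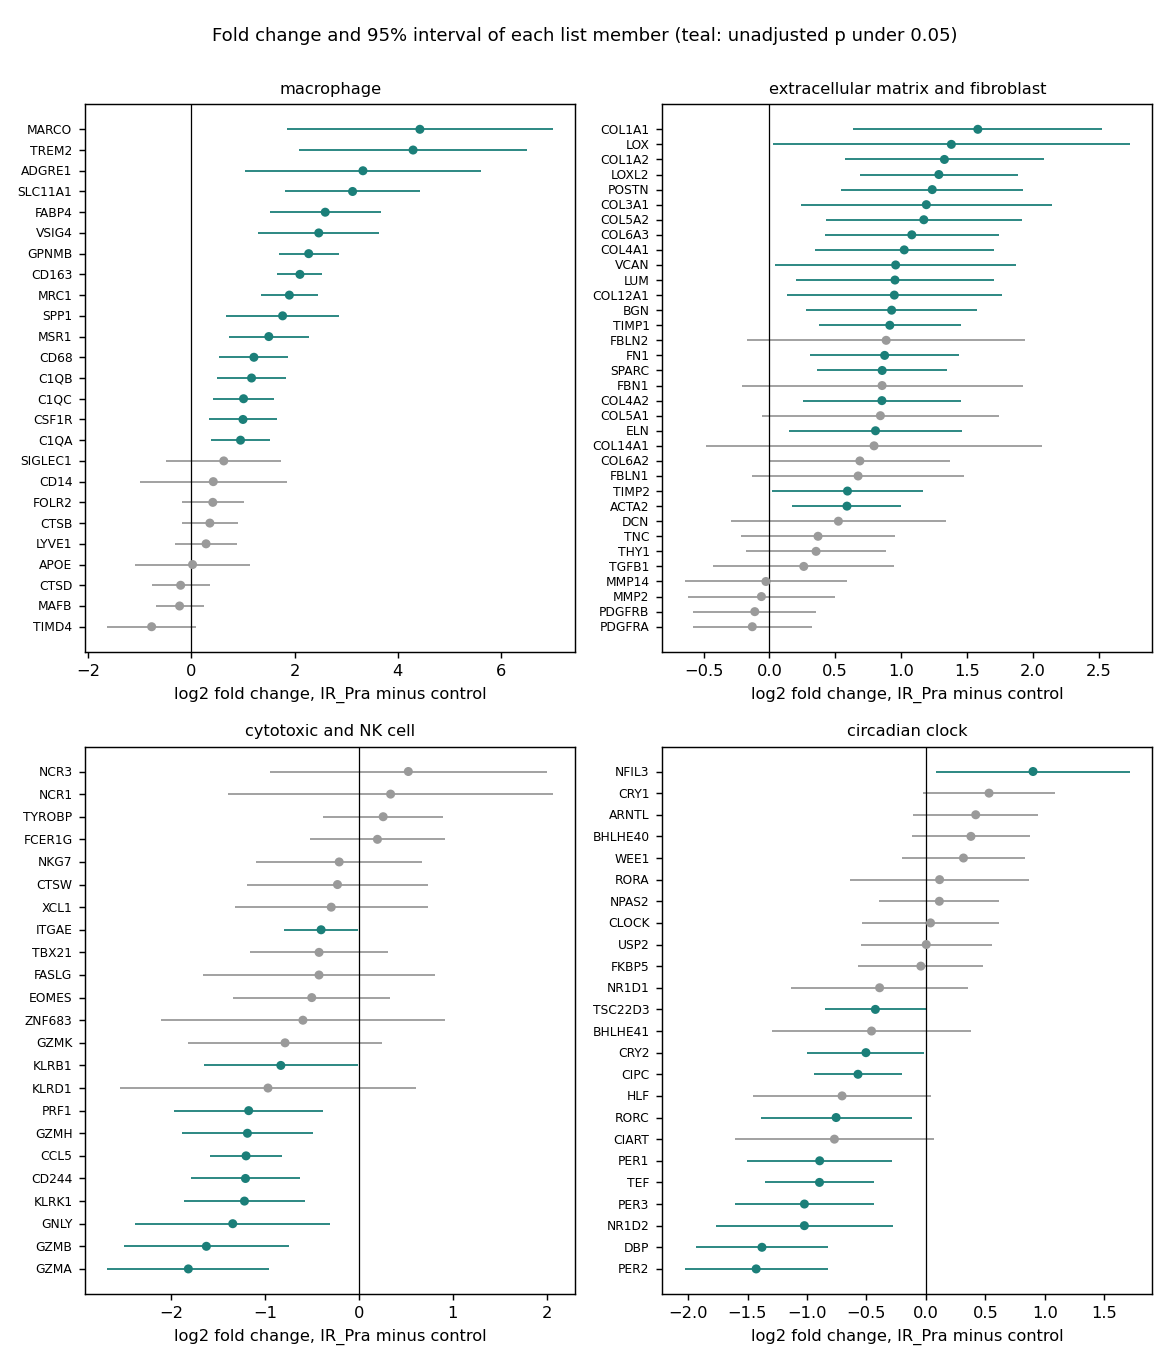
Log2 fold change (IR_Pra minus control) with its 95% interval for every kept member of 4 gene lists, teal where the unadjusted p was under 0.05. Macrophage and matrix members lie mostly to the right of 0 and cytotoxic and clock members mostly to the left, and no member passed after adjustment over all genes.

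Signals of acute inflammation were mixed. Of 38 cytokine and chemokine genes 6 were higher and 1 lower, CCL5, at an unadjusted p under 0.05, with a median of 0.32 (3 higher without IR_Pra 1 and 3 without IR_Pra 2, where the median was -0.012). CCL2, which draws in monocytes, was 16.9 and 10.9 CPM in control, 30.5 and 31.7 in IR_Pra and 43.9 and 93.7 in IR (1.16 ± 0.26, DESeq2 adjusted p = 0.0146). CCL28, an epithelial chemokine that draws in IgA plasma cells, was 2.09 and 3.24 CPM in control and 10.7 and 5.31 in IR_Pra (1.58 ± 0.45), and IL33, an alarm signal of damaged cells, 10.9 and 9.60 in control and 24.7 and 16.6 in IR_Pra (1.01 ± 0.27). IL1B was 1.14 and 0.651 in control and 1.14 and 1.26 in IR_Pra, with an interval from -0.74 to 1.59, and CXCL8 23.7 and 15.5 in control and 20.8 and 14.2 in IR_Pra, with an interval from -0.94 to 0.61. Of 36 interferon genes 5 were higher and 0 lower (median 0.32; 9 higher without control 2, 3 without IR_Pra 1 and 1 without IR_Pra 2, where the median was -0.026). Among 23 immediate early genes 2 were higher and 1 lower, the latter SGK1, a kinase that answers steroid hormones, at 604 and 511 CPM in control and 306 and 282 in IR_Pra (-0.92 ± 0.18, DESeq2 adjusted p = 0.00120). Without IR_Pra 2 this list had 4 higher genes.

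Genes of general cell machinery are given for comparison. The 40 ribosomal protein genes had a median of -0.19, and the 17 nuclear genes of oxidative phosphorylation 0.09, with 0 members past an unadjusted p of 0.05 in either list with all 4 libraries, whereas without IR_Pra 2 there were 10 lower ribosomal protein genes. The 13 mitochondrially encoded genes had a median of -0.52, with 0.38 and -0.38 in control 1 and control 2 and -0.50 and -0.45 in the IR_Pra libraries. They took 8.35% and 5.87% of counts in control and 5.31% and 5.90% in IR_Pra, so control 1 stood apart from the other 3 libraries. Of the 13, 1 was lower at an unadjusted p under 0.05, and 6 were lower without control 2.

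Genes common to all gut epithelium and genes of other tissues that a sample can carry were examined as well. The 26 genes of epithelial identity had a median of -0.26, with 0 higher and 1 lower at an unadjusted p under 0.05. Against the control mean that list stood at -0.26 and -0.11 in the IR_Pra libraries and -0.65 and -2.16 in IR, so the IR libraries lay lowest. The 23 genes of absorptive enterocytes had a median of -0.14, with 2 higher and 3 lower (5 higher without control 2 and 4 without IR_Pra 1, and 6 lower without IR_Pra 2), and the 20 of goblet cells 0.30, with 2 higher and 1 lower (4 higher without control 1). The 9 genes of skeletal and cardiac muscle, some of which smooth muscle shares, had a median of 0.89, at -0.77 and 0.77 in control 1 and control 2 and 1.03 and 0.73 in IR_Pra, much like the smooth muscle genes. Creatine kinase of muscle (CKM), for one, was 39.5 and 120.3 CPM in control and 194 and 141 in IR_Pra, while titin (TTN), of striated fibres, was below 1 CPM in all 4 libraries. The 12 genes of fat and mesothelium had a median of -0.45, with 2 higher and 3 lower (0 lower without control 2 and 1 without IR_Pra 1), and this median was -0.16 without control 2 and -0.20 without IR_Pra 1. The 13 genes of pancreas, liver and stomach had a median of -0.08, or 0.33 without control 2 and 0.15 without IR_Pra 1, with 0 higher and 1 lower. LPL, lipoprotein lipase, was the higher fat gene beside FABP4, at 19.3 and 18.3 CPM in control and 43.3 and 32.1 in IR_Pra (1.004 ± 0.21). The 9 genes of mast cells and eosinophils had a median of 0.11, and the 26 of antigen presentation 0.18 with 1 higher. These medians were -0.18 without control 1 for the first list, and -0.18 without IR_Pra 2 for the second, which had 8 higher genes without IR_Pra 1.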

How the data were processed

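RNA sequencing of small intestine was analysed from 1 deposited table, in which the authors gave raw read counts and FPKM (fragments scaled to transcript length and depth) for every gene in each of 6 libraries, per the file headers. The submitters' processing notes name bcl2fastq 2.20.0, Trimmomatic, HISAT2 2.1.0 and StringTie 2.1.3b, and the builds Sscrofa11.1 and GRCh38. The role of the human build, the counting step and its use of strand are not given in the sources used here. Rows without a gene name (24) were left out of library sizes and tests, and held 0.0224% to 0.0361% of counts in the libraries compared. Positions, gene types and product names are from the RefSeq table of Sscrofa11.1, matched by Entrez ID for all 30352 named rows.

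The 2 control and 2 IR_Pra libraries (48600424 to 62071404 counts) were fitted alone with edgeR 4.0.16 in R 4.3.3: filterByExpr by group, TMM scaling, a quasi-likelihood fit with 2 residual and 3.446 prior degrees of freedom, and Benjamini-Hochberg adjustment over all 17617 genes. Standard errors were derived from that test, as the size of the log2 fold change divided by the square root of the F statistic. The 95% intervals were built from them, so both restate the test's p. A prior count of 2 was used for log2 CPM. The labels number the samples 1 and 2 in each group and name no pairing, and p-values measure the spread between these samples. CPM of the IR libraries come from scaling all 6 libraries together, which moved CPM by at most 3.13%. The code was tested on simulated counts.

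The members and the 58 gene lists (56 with at least 5 kept genes) were chosen with earlier results of these data known. No gene passed the adjusted threshold, so the genes named were the 10 of smallest p in each direction with a mean of at least 1 CPM in the higher group, up to 5 genes of smallest p in each list, and a set of target and marker genes. Alternatives were DESeq2 1.42.0, limma 3.58.1 (voom on counts, and trend on log2 of the deposited FPKM plus 1), other scalings and filters, a fit of all 6 libraries, a replicate block and leaving out each library. The drug-free irradiated group was not tested here, and no promoter or protein sequence was used. Some genes are not reported here.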

Additional observations from a re-analysis of the deposited data

Results flagged for a closer look

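Rows of the count table that carry no gene name enter no comparison. They held 0.0263% of the counts of IR_Pra 1 and 0.0361% of those of IR_Pra 2, against 0.0231% and 0.0224% in control 1 and control 2, and were set apart here because both treated libraries lay above both controls in rows the report does not use. The IR libraries held 0.0385% and 0.00906% in these rows.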

How the results depend on the processing

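The count of genes at an adjusted p under 0.05 was 0 in edgeR's test (1668 at an unadjusted p under 0.05) and stayed at 0 with limma voom (1632 unadjusted), limma trend on log2(FPKM + 1) (1688 unadjusted), a fit of all 6 libraries (623 unadjusted) and every scaling or filter tried. DESeq2 put it at 405, with 253 higher and 152 lower (1784 unadjusted). With 1 library left out the count ranged from 0 to 2, 1 of them higher and 1 lower, and the 2 calls came without control 2. In those fits the lone library of a group is assumed to vary like the other group. A replicate block gave 0 genes (1186 unadjusted). The numbers only name samples: deviations of same-numbered libraries had a correlation of -0.11 across genes. A crossed pairing, added after seeing the data, gave 0 (2065 unadjusted). Of 117 genes that met the naming rules and appear in the text, 111 kept their direction under every alternative. Genes named outside those rules, such as TMEM107 and MOGAT1, were not in this count. With 1 library left out, the log2 fold change of PAX5 ranged from -1.08 to 0.053, that of APOA4 from -0.84 to 1.23, of THBD from -0.094 to 0.49, of CXCL8 from -0.46 to 0.17, of INSIG1 from -0.35 to 0.31 and of MUC2 from -0.28 to 0.23. INSIG1 also turned sign with limma trend (0.029) and library size alone (0.011), as did MUC2 (0.037 and 0.019). The cause was not tested. Of 948 list medians under an alternative, 40 had the other sign. Depth limits genes near 0 in control, such as HOXA9, and 2 animals a group limit the rest.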
